A study of Mus musculus with 13 samples.

Results

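Gene expression in S1 tubule segments of mice given a single dose of lipopolysaccharide (LPS) was compared with that of mice given saline, using 8 of the 13 arrays of the series: 4 arrays labelled LPS and 4 labelled sham. All samples were S1 kidney tubule from male mice on the C57Bl/6J background, with no transgene or deletion named. The LPS group received 5 mg/kg of LPS of serotype 0111:B4 into the peritoneum and was collected at 24 h; the same dose is labelled as 100 ug. The control group received the same volume of sterile saline. The other 5 arrays, from mice given a small dose of LPS before the same challenge, entered the fit only to estimate the spread. Neither the source animal of an array nor the way the segments were isolated is given by the labels; the p-values reflect the spread of these samples alone, which may be technical. Members were all 22180 genes with a probe set of 1 gene symbol, and values are log2 expression after robust multi-array averaging (RMA), in which 1 unit is a doubling.

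S1 is where the proximal tubule begins, next to the glomerulus, and it reclaims filtered glucose, phosphate, amino acids, bicarbonate and proteins through brush-border transporters and endocytic receptors. LPS, the endotoxin of Gram-negative bacteria, is handed by the co-receptor CD14 to Toll-like receptor 4, which signals through MyD88 and TRIF to NF-kB and interferon-responsive factors. Interferons act through STAT proteins and interferon regulatory factors on genes of cell-autonomous defence and antigen presentation, and interleukin-6 acts through STAT3 on acute phase genes such as the fibrinogens. In bulk tissue, fewer cells of a type and less RNA per cell cannot be told apart.

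Promoter sequences of 6 genes described below are shown first, because genes of the groups they belong to often hold DNA motifs that STAT proteins and interferon regulatory factors are known to bind. They are the first 6, by p-value, of the interferon-related, antigen presentation and acute phase genes at an unadjusted p under 0.05 whose RefSeq window holds such a motif. Each run is the 250 bases before the annotated start, 5′ to 3′ in the direction of transcription, from RefSeq on GRCm38.p6. Capitals mark matches, on either strand, to TTCNNNGAA (the STAT motif, where N is any base) or to the interferon-stimulated response element (ISRE), taken as GAAA repeated after any 2 bases.
H2-T23 (chr17:36032702-36032951, minus strand): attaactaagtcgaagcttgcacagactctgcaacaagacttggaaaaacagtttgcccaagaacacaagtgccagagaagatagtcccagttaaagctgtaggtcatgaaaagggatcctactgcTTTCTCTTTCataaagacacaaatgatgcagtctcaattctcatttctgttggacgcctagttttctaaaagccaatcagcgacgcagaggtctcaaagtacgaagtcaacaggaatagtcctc
Irgm1 (chr11:48871421-48871670, minus strand): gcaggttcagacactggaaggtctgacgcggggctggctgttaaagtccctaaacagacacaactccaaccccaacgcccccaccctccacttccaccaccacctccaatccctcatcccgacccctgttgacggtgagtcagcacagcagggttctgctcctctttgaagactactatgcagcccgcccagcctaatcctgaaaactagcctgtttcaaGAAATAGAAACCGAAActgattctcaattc
Fgb (chr3:83049864-83050113, minus strand): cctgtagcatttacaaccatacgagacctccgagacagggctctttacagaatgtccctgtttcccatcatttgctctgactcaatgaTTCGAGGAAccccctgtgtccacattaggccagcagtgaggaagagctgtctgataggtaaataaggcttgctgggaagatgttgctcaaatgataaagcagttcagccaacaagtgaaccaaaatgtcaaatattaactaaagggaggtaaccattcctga
Igtp (chr11:58199306-58199555, plus strand): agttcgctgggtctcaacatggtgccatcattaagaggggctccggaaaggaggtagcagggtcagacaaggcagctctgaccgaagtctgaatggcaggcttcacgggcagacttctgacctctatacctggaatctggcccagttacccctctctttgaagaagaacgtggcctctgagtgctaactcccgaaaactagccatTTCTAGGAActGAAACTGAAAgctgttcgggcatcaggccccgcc
Fga (chr3:83025903-83026152, plus strand): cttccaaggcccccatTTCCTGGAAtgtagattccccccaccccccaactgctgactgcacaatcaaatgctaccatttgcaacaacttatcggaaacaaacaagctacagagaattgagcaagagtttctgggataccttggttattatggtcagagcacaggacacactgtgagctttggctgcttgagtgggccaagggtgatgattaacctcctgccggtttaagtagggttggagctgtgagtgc
B2m (chr2:122147437-122147686, plus strand): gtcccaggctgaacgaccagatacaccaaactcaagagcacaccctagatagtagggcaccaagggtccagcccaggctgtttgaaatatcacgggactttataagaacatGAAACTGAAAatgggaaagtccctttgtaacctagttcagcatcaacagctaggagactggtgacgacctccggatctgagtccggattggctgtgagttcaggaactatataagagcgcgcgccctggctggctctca
Counted from the annotated start, where -1 is the base before it, H2-T23 has an ISRE at -124 to -115 and B2m has one at -139 to -130. Irgm1, a GTPase gene, has overlapping ISREs at -30 to -21 and -24 to -15. Igtp, of the same family, has a STAT motif at -45 to -37 and an ISRE at -34 to -25. The fibrinogen genes Fgb and Fga have a STAT motif each, at -162 to -154 in Fgb and -234 to -226 in Fga. For Fgg, the other fibrinogen gene, the search gave no match, and whether it had a window is not given here. B2m also holds the NF-kB motif, GGGA and TCC with any 3 bases between them, in overlapping matches at -127 to -118 and -126 to -117, a motif found in 5.21% of all genes with a window. A match is a description of letters and not a measured site.

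Arrays of the groups were hardly more alike within than between groups: the mean correlation across genes was 0.87 within and 0.8643 between them, and array medians lay between 3.56 and 3.67. As no detection calls exist, 1105 olfactory receptor genes, a family taken as mostly silent in kidney, gave a background reference of 4.77, the 95th percentile of their means, and 2834 genes had a group mean above it. Markers of the S1 and S2 proximal tubule were above it for 18 of 28 genes. The corresponding counts were 4 of 10 for S3, 4 of 20 for later nephron segments, 0 of 6 for podocyte, 1 of 15 for endothelium and 1 of 21 for macrophage markers. One array stood apart: LPS replicate 3 carried high values of loop and distal tubule genes and of mitochondrial genes, and leaving it out moved 31 of 43 list medians by over 1.5 times or turned their sign. Other arrays moved medians too, since leaving out any 1 array did so for 39 of the 43. Medians near 0 change easily by this measure. List medians below are therefore followed by their lowest and highest values with 1 array left out, or by the value without LPS replicate 3.

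LPS and control differed strongly in a small set of genes, most of them higher in LPS, and little in the rest. Differences of at least 1 log2 unit were found for 191 genes (0.861%), 130 of them higher in LPS (0.586% of genes tested) and 61 lower (0.275%), and differences of at least 2 log2 units for 11 genes, all higher (0.0496%), 3 of which are olfactory receptor genes. Over all genes 47.1% were higher and 52.9% lower, with a median difference of -0.02, and the central 90% of genes lay between -0.41 and 0.45. Of the 2202 genes with a mean over all 13 arrays above the reference, 50.4% were higher and 49.6% lower. In the same genes 1.77% were higher and 0.59% lower by at least 1 log2 unit, and 6.04% were higher and 3.18% lower at an unadjusted p under 0.05. That mean holds 4 control arrays beside 4 LPS arrays and 5 of the preconditioned group. Genes higher after LPS therefore pass this filter more easily than genes lower after it. Fgg passed with a control mean of 3.76, and Lpl, at 5.56 in control, did not pass. The excess of higher genes in this set is thus partly set by the filter.

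No gene passed the threshold of an adjusted p of 0.05: limma called 0 of 22180 genes (0.0%). An unadjusted p under 0.05 was found for 1427 genes (6.43%), with 773 on the high side (3.49%) and 654 on the low side (2.95%). Without moderation of the spread, 0 genes had an adjusted p under 0.05 as well. An adjusted p under 0.1 was reached by 18 genes (0.0812%), 15 higher and 3 lower, and the 4 LPS arrays lay wholly outside the range of the 4 control arrays for each of them. Arrays did not overlap for 698 of all genes (3.15%), 343 higher (1.55%) and 355 lower (1.6%). Differences of at least 1 log2 unit without overlap were seen for 70 genes (0.316%), 55 higher (0.248%) and 15 lower (0.0676%). Replicates varied more after LPS: the SD was larger in LPS than in control for 56.8% of genes, and its median over all genes was 0.259 in LPS and 0.231 in control.

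**Figure D1:**
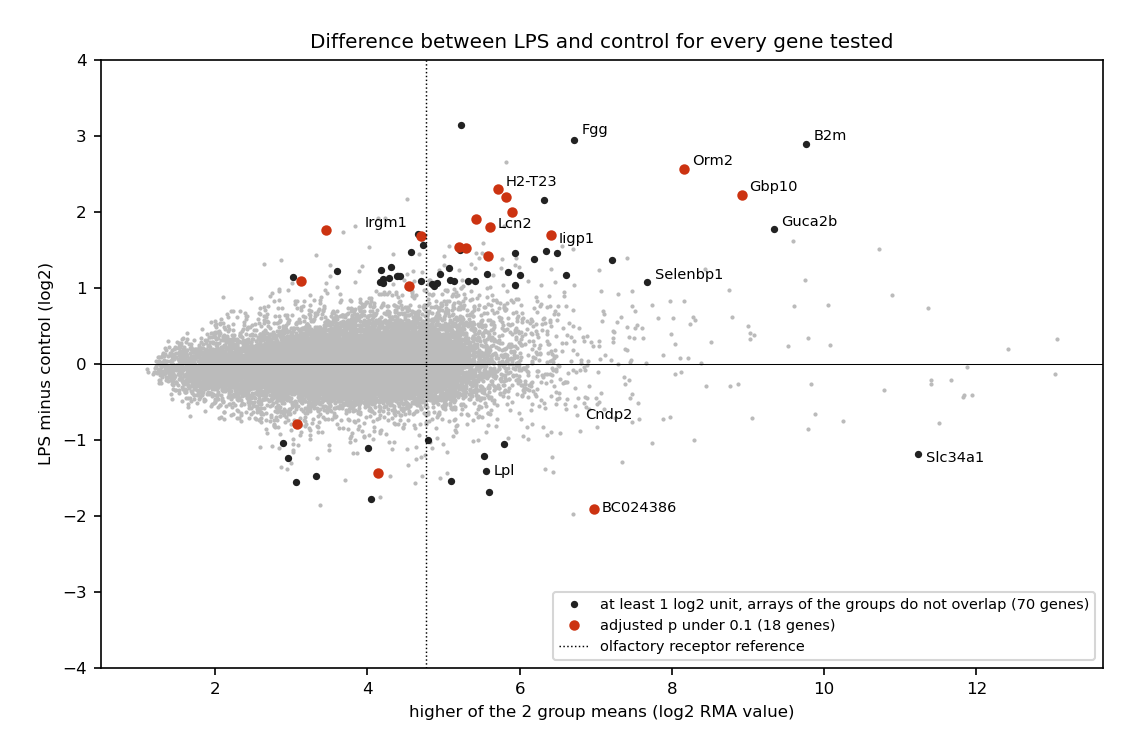
Each dot is 1 of the 22180 genes, at the higher of its group means (log2 RMA value) and its difference, LPS minus control (log2). Red dots are the 18 genes at an adjusted p under 0.1, black dots the 70 genes that differ by at least 1 log2 unit without overlap of arrays, and the dotted line is the olfactory receptor reference of 4.77. Of the 70 genes, 55 lie above the zero line and 15 below it.

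The 18 genes at an adjusted p under 0.1 fall into a few groups with known roles. Gbp10, Gbp11, Iigp1 and Irgm1 are interferon-inducible GTPases, and H2-T23 is a non-classical MHC class I gene. Lcn2, which encodes the iron-siderophore scavenger lipocalin 2, Orm2, an orosomucoid, and Fgb, the fibrinogen beta chain, are acute phase genes. Plin2 coats lipid droplets, Angptl4 inhibits lipoprotein lipase, and Pdk4 restrains pyruvate oxidation in mitochondria. Xdh encodes xanthine dehydrogenase of purine breakdown, and Plac8 is used as a marker of injured tubule. The remaining higher genes are the small RNA genes Snord19 (difference 1.76), with both group means below the reference, and Mir196a-1 (1.41), with its control mean below it. The 3 lower genes were BC024386, Olfr218 (-1.43) and Olfr1356 (-0.80), and the last pair belongs to the family that set the reference. A group mean was above the reference for 12 of the 18. The control mean was above it only for Gbp10, Orm2 and BC024386, and the rest of the 12 passed through the LPS mean alone.

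Among the genes at the top of this list, Gbp10 read 6.87, 6.94, 6.83 and 6.14 in the control arrays and 8.62, 9.69, 8.72 and 8.63 in the LPS arrays. Group means were 6.70 ± 0.38 for control and 8.91 ± 0.52 for LPS (SD, n = 4 each), and it was 4.65-fold higher in LPS (difference 2.22, SE 0.33, limma adjusted p = 0.0536). H2-T23 read 3.14, 3.14, 3.47 and 3.92 in the control arrays and 5.05, 6.08, 5.05 and 6.69 in the LPS arrays (difference 2.30, SE 0.35, limma adjusted p = 0.0536). All 4 LPS arrays of both genes lay above the highest control array. BC024386, a gene without an assigned function, went the other way, at 7.97, 6.82, 6.27 and 6.83 in the control arrays and 5.33, 4.98, 5.39 and 4.56 in the LPS arrays (difference -1.91, SE 0.31, limma adjusted p = 0.0577). Its highest LPS value lay below its lowest control value. Xdh read 3.32, 3.50, 4.11 and 3.71 in the control arrays and 4.75, 5.03, 5.27 and 5.76 in the LPS arrays (difference 1.54, SE 0.25, limma adjusted p = 0.0597), and Plac8 differed by 1.53 (SE 0.24), both without overlap.

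IRG and GBP GTPases, which attack the vacuoles of intracellular pathogens, were higher in LPS for 12 of the 14 measured genes, with a median difference of 0.55 (from 0.443 without LPS replicate 1 to 0.635 without LPS replicate 3) against -0.02 for all genes. Of the 14, 4 were at an adjusted p under 0.1 (0.0812% of all genes), all higher, and 6 were higher without overlap (1.55% of all genes). At an unadjusted p under 0.05 there were 7 higher and 0 lower, against 3.49% and 2.95% of all genes. Iigp1 read 5.11, 4.43, 4.81 and 4.50 in the control arrays and 6.93, 6.39, 5.62 and 6.67 in the LPS arrays (difference 1.69, SE 0.26, limma adjusted p = 0.0536). Irgm1 read 2.51, 2.91, 2.75 and 3.93 in the control arrays and 4.34, 4.51, 5.32 and 4.67 in the LPS arrays (difference 1.68, SE 0.29, limma adjusted p = 0.0752). Igtp, a related IRG protein, read 3.42, 2.84, 2.99 and 3.39 in the control arrays and 4.45, 5.69, 4.24 and 4.51 in the LPS arrays (difference 1.56, SE 0.31, limma adjusted p = 0.133). In each of the 3 genes the groups stayed apart, and control replicate 4 of Irgm1 came nearest to the LPS arrays. Irgm1 and Igtp had both group means below the reference, as had Gbp11, which differed by 1.09 with an LPS mean of 3.12. Gbp3 and Gbp7 differed by 0.74 and 0.65. Of the 14 genes, 3 had a group mean above the reference. Gbp9, at a level of 5.36 in control, differed by 0.44 (0.284 without LPS replicate 2 and 0.271 without control replicate 4), and Gbp6 by -0.15. Probe sets of close family members can take signal from each other, so values of Gbp and Irgm genes are uncertain as to the member. The list median was alike in the LPS arrays, at 0.72, 0.57, 0.51 and 0.56 for replicates 1 to 4 against the control mean, and the 4 control arrays lay between -0.09 and 0.14. In the RefSeq promoters of this list the ISRE was found in 7 of 7 genes with a window (100.0%), against 3.99% of 27025 genes, and the STAT motif in 4 of 7 (57.1%) against 9.55%.

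**Figure D2:**
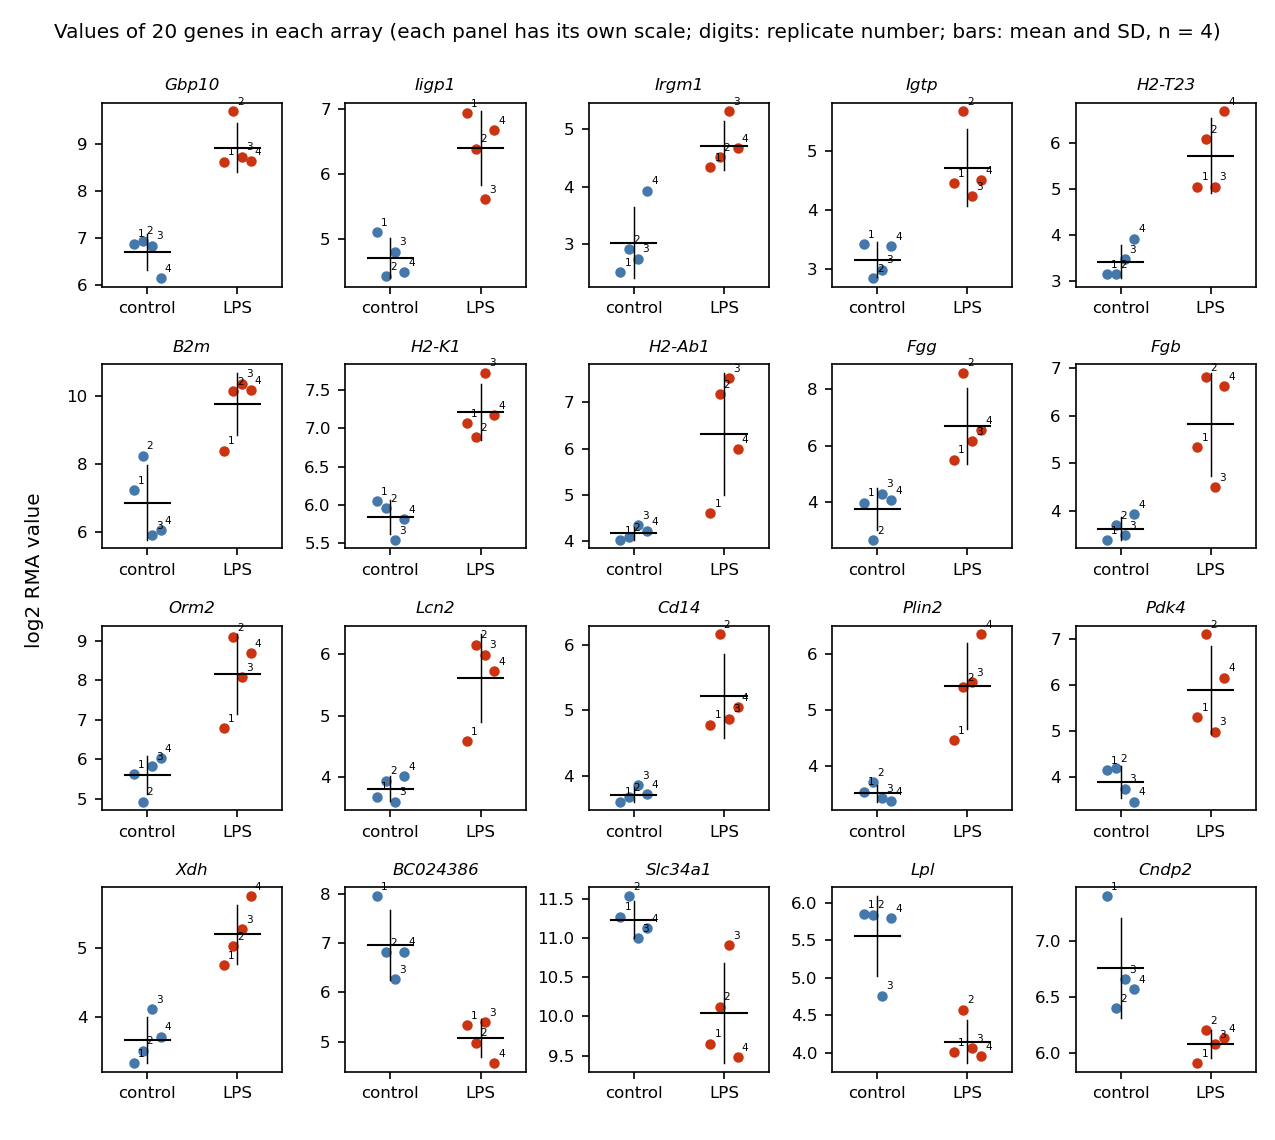
Log2 RMA values of 20 genes in each of the 4 control and 4 LPS arrays; digits are replicate numbers, the horizontal bar is the mean and the vertical line the SD (n = 4), and each panel has its own scale. The genes were picked, many by a rule that requires groups without overlap, so the groups do not overlap in any of the 20 panels. Over all genes 3.15% did not overlap. LPS replicate 1 is the lowest LPS array for B2m, H2-Ab1, Orm2, Lcn2 and Plin2.

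Other interferon-stimulated genes differed less. Of the 40 measured, 28 were higher and 12 lower in LPS, with a median of 0.17 (from 0.103 without LPS replicate 1 to 0.189 without control replicate 4). An unadjusted p under 0.05 was found for 3 higher and 1 lower, beside 3.49% and 2.95% of all genes, and 2 had a group mean above the reference. Rtp4, a chaperone of receptor trafficking that interferon induces, differed by 0.62 (SE 0.17, limma adjusted p = 0.517), and Stat2, which carries the type I interferon signal, by 0.43. Irf8 differed by 0.37, and Irf1, the transcription factor of interferon-gamma responses, by 0.20. Oas1g, of the RNA-sensing oligoadenylate synthetases, lay on the other side at -0.64. Isg15 and Ifit1, common reporters of type I interferon, differed by 0.11 and 0.13. The ISRE was present in 15 of 31 promoters of this list (48.4%).

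MHC class I genes, whose products show peptides to cytotoxic T cells, were led by the light chain. B2m, beta-2-microglobulin, read 7.24, 8.24, 5.92 and 6.05 in the control arrays and 8.39, 10.14, 10.36 and 10.16 in the LPS arrays, and was 7.46-fold higher in LPS (difference 2.90, SE 0.70, limma adjusted p = 0.338). Its LPS replicate 1 lay just above control replicate 2, and the other 3 LPS arrays lay near each other. H2-K1, a classical heavy chain, read 6.05, 5.96, 5.54 and 5.81 in the control arrays and 7.06, 6.89, 7.72 and 7.16 in the LPS arrays (difference 1.37, SE 0.34, limma adjusted p = 0.387). Tapbp, the tapasin that loads peptides, differed by 1.08 (SE 0.23) without overlap. Of 17 measured genes 13 were higher, 4 of them at an unadjusted p under 0.05, and 0 were lower at that level (23.5% of the list, beside 6.43% of all genes). Higher without overlap were 4 as well (1.55% of all genes). The median was 0.16 (from 0.0718 without LPS replicate 1 to 0.199 without control replicate 3). The peptide transporter genes Tap1 and Tap2 differed by 0.17 and -0.09, and the immunoproteasome genes Psmb8 and Psmb9 by 0.12 and -0.21. H2 class I genes are similar in sequence, so their probe sets may share signal.

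In MHC class II, which shows peptides to helper T cells, the difference sat in a few genes. H2-Ab1, a class II beta chain, read 4.02, 4.08, 4.35 and 4.21 in the control arrays and 4.60, 7.18, 7.52 and 5.99 in the LPS arrays (difference 2.16, SE 0.45, limma adjusted p = 0.183). LPS replicate 1 lay close to the controls, and replicates 2 and 3 were highest. H2-Eb1 differed by 0.39 and H2-Aa, the partner chain of H2-Ab1, by 0.15 (0.0243 without LPS replicate 3). Of 10 genes 9 were higher, 2 of them at an unadjusted p under 0.05, with a median of 0.20 (from 0.118 without control replicate 1 to 0.26 without LPS replicate 1). Macrophage and monocyte markers, which share class II expression, were higher for 12 and lower for 9 of 21 genes, with a median of 0.04 (from -0.0297 without LPS replicate 1 to 0.0709 without control replicate 2). Of these markers 0 had an unadjusted p under 0.05, beside 6.43% of all genes. Their summed log2 values were 80.2 to 82.6 in the control and 81.2 to 82.6 in the LPS arrays. Ptprc, the pan-leukocyte marker, differed by 0.01. Since 1 of the 21 had a group mean above the reference, these values lie mostly in the range of background, and the part of such cells in the class II values was not tested.

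Acute phase genes held some of the largest differences above the reference. Fgg, the fibrinogen gamma chain, read 3.99, 2.67, 4.31 and 4.07 in the control arrays and 5.51, 8.59, 6.16 and 6.56 in the LPS arrays (difference 2.94, SE 0.60, limma adjusted p = 0.167), with a control mean of 3.76, below the reference. Fgb, the beta chain, read 3.38, 3.70, 3.49 and 3.93 in the control arrays and 5.35, 6.81, 4.51 and 6.62 in the LPS arrays (difference 2.19, SE 0.39, limma adjusted p = 0.0919). Fga, the alpha chain, read 2.84, 3.15, 2.93 and 2.92 in the control arrays and 4.10, 6.18, 4.61 and 3.77 in the LPS arrays (difference 1.71, SE 0.38, limma adjusted p = 0.23). All 3 chains of fibrinogen, the clot protein, were apart between groups, and LPS replicate 2 was the highest array of Fgg and Fgb. Both group means of Fga lay below the reference. Orm2 read 5.62, 4.92, 5.82 and 6.02 in the control arrays and 6.79, 9.09, 8.08 and 8.69 in the LPS arrays (difference 2.57, SE 0.45, limma adjusted p = 0.0844), and the related Orm1 differed by 0.81, with shared signal possible between these close copies. Lcn2 read 3.68, 3.94, 3.60 and 4.02 in the control arrays and 4.58, 6.16, 5.99 and 5.73 in the LPS arrays (difference 1.80, SE 0.30, limma adjusted p = 0.0638), with LPS replicate 1 lowest among the LPS arrays. Saa2, a serum amyloid gene, read 3.40, 4.12, 3.78 and 4.42 in the control arrays and 4.59, 7.59, 4.41 and 5.47 in the LPS arrays, and its difference of 1.59 was 0.893 without LPS replicate 2. Lrg1 differed by 0.77. In the whole list 13 of 22 genes were higher and 9 lower. At an unadjusted p under 0.05 there were 8 higher and 0 lower (36.4% of the list, beside 6.43% of all genes). Without overlap there were 6, all higher, beside 1.55% of all genes. The median was 0.24 (from 0.164 without LPS replicate 3 to 0.351 without LPS replicate 4). Other acute phase genes did not reach that level, among them Hp, haptoglobin, at -0.08 (from -0.171 to 0.112 with 1 array left out), and Hpx, hemopexin, at -0.18. The STAT motif was found in 6 of 19 promoters of this list (31.6%).

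Complement genes were higher for 10 of 16, with a median of 0.12 (from 0.0139 without control replicate 2 to 0.187 without control replicate 3). At an unadjusted p under 0.05 there were 3 higher and 0 lower (18.8% of the list, beside 6.43% of all genes). They were Cfb, factor B of the alternative pathway (0.84), C2 (0.52) and the C1 inhibitor Serping1 (0.52, or 0.275 without LPS replicate 3). In the list 0 genes were without overlap, beside 3.15% of all genes. Of the IL-6 family and STAT3 list 14 of 19 were higher, with a median of 0.17 (from 0.036 without LPS replicate 1 to 0.23 without LPS replicate 4). Of them 5 were higher and 0 lower at an unadjusted p under 0.05 (26.3% of the list, beside 6.43% of all genes). Klf6, a zinc finger transcription factor, read 2.46, 3.42, 3.12 and 3.41 in the control arrays and 4.75, 5.00, 4.85 and 3.71 in the LPS arrays (difference 1.47, SE 0.29, limma adjusted p = 0.125). Stat3 itself read 4.49, 4.79, 4.58 and 4.94 in the control arrays and 5.27, 5.52, 5.42 and 6.09 in the LPS arrays (difference 0.87, SE 0.22, limma adjusted p = 0.422). For both genes the LPS arrays lay above all control arrays, and both group means of Klf6 lay below the reference. Osmr, the oncostatin M receptor, and Myc differed by 0.50 (0.23 without LPS replicate 4) and 0.69. The signal transducers Il6st and Jak1 differed by 0.53 and 0.37, or by 0.0967 and 0.249 without LPS replicate 3. The early genes Fos and Junb differed by -0.20 and -0.19 at this time.

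The receptor side of LPS signalling differed in its co-receptor. Cd14 read 3.61, 3.68, 3.87 and 3.72 in the control arrays and 4.78, 6.16, 4.87 and 5.05 in the LPS arrays (difference 1.497, SE 0.28, limma adjusted p = 0.11), with every LPS array above every control array and LPS replicate 2 highest. Tlr4 read 2.44, 3.21, 3.03 and 2.18 in the control arrays and 2.88, 2.88, 2.98 and 2.52 in the LPS arrays (difference 0.10, SE 0.26, limma adjusted p = 0.958), so its groups overlapped and lay below the reference. Ly96, the receptor partner of Tlr4, differed by -0.28, Lbp, the LPS-binding protein, by 0.19, Myd88 by 0.19 and Ticam1, which encodes TRIF, by 0.15. Cd14 was the 1 gene of the 18 in this list with an unadjusted p under 0.05 (5.56%, beside 6.43% of all genes), and the list median was 0.15 (from 0.106 without LPS replicate 4 to 0.175 without control replicate 1).

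Feedback inhibitors and cytokines differed little. Nfkbia, the NF-kB inhibitor that NF-kB itself induces, read 4.48, 4.33, 4.31 and 4.36 in the control arrays and 4.64, 5.38, 5.23 and 5.24 in the LPS arrays (difference 0.75, SE 0.23, limma adjusted p = 0.547), without overlap, and Zfp36, which destabilises cytokine mRNA, differed by 0.48. These were the 2 of 22 feedback genes higher at an unadjusted p under 0.05, against 0 lower (9.09% of the list, beside 6.43% of all genes), and Nfkbie and Dusp1 differed by -0.27 and 0.29. Of 30 cytokines and chemokines, 2 were higher and 2 lower at that level (13.3% of the list, beside 6.43% of all genes). The median of this list was 0.01 (from -0.0637 without LPS replicate 4 to 0.0502 without LPS replicate 3). Il34, a ligand of the CSF1 receptor, differed by 1.13, and Cxcl9, an interferon-gamma target, read 3.31, 2.91, 3.31 and 3.42 in the control arrays and 3.95, 5.79, 3.82 and 4.01 in the LPS arrays, with LPS replicate 2 highest (difference 1.16, or 0.693 without it). Ccl3 and Il10 were lower, at -0.73 and -0.38. The proinflammatory Il6 and Tnf differed by -0.04 and -0.06, and 2 of the 30 had a group mean above the reference.

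Several genes of lipid storage and of the fasting response that PPAR-alpha drives were higher, with Pdk4 at the front. Pdk4 read 4.16, 4.20, 3.76 and 3.47 in the control arrays and 5.31, 7.11, 5.00 and 6.17 in the LPS arrays (difference 2.00, SE 0.37, limma adjusted p = 0.0995). Plin2 read 3.54, 3.71, 3.43 and 3.37 in the control arrays and 4.46, 5.40, 5.49 and 6.35 in the LPS arrays (difference 1.91, SE 0.30, limma adjusted p = 0.0536), and Angptl4 read 3.86, 3.10, 3.65 and 3.45 in the control arrays and 4.17, 4.72, 4.51 and 4.78 in the LPS arrays (difference 1.03, SE 0.17, limma adjusted p = 0.0688). Txnip, the thioredoxin-interacting protein that limits glucose uptake, read 4.93, 4.48, 5.14 and 4.70 in the control arrays and 5.75, 6.16, 5.85 and 6.99 in the LPS arrays (difference 1.37, SE 0.25, limma adjusted p = 0.103). None of these 4 genes overlapped between groups, and LPS replicate 1 was the lowest LPS array of Plin2. Both group means of Angptl4 lay below the reference. In the list 17 of 25 genes were higher, with a median of 0.25 (from 0.0754 without LPS replicate 3 to 0.335 without LPS replicate 4). At an unadjusted p under 0.05 there were 8 higher and 0 lower genes (32.0% of the list, beside 6.43% of all genes). Pnpla2, which hydrolyses stored triglyceride, differed by 0.75, Cpt1a, which admits fatty acids to mitochondria, by 1.01 (0.627 without LPS replicate 3), and Ppara itself by 0.39. Members on the other side were Fabp1 (-0.94, or -0.442 without LPS replicate 4) and Hilpda (-0.45), which did not pass. Lpl, the lipoprotein lipase that Angptl4 inhibits, was lower, reading 5.84, 5.84, 4.76 and 5.79 in the control arrays and 4.01, 4.57, 4.06 and 3.95 in the LPS arrays (difference -1.41, SE 0.28, limma adjusted p = 0.13).

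Mitochondrial genes depended on LPS replicate 3. Of 18 fatty acid oxidation genes 15 were higher, with a median of 0.33, and the dehydrogenases Acadl (0.91) and Acadvl (0.98) did not overlap. Yet the list median against the control mean was -0.23, 0.08, 1.03 and 0.31 in LPS replicates 1 to 4, and 0.08 without replicate 3. For 79 genes of oxidative phosphorylation the same values were -0.23, -0.06, 1.15 and -0.18, with a median of 0.14 over all arrays and -0.20 without replicate 3. Cox7b, a subunit of cytochrome oxidase, read 4.91, 3.53, 1.81 and 3.29 in the control arrays and 3.87, 2.90, 8.41 and 2.75 in the LPS arrays, with LPS replicate 3 far above the rest. In oxidative phosphorylation 0 genes were higher and 2 lower at an unadjusted p under 0.05 (2.53% of the list, beside 6.43% of all genes). The lower genes were Cox7c (-0.73) and Ndufs5 (-0.84, or -0.531 without LPS replicate 1). Tricarboxylic acid cycle genes had a median of 0.16, or -0.05 without replicate 3, and Fh1, fumarase, led them (0.67). Genes that mark the loop, the distal tubule and the collecting duct were high in the same array. Slc12a1, the loop cotransporter, read 4.02, 3.74, 3.94 and 3.49 in the control arrays and 3.72, 3.87, 6.79 and 3.71 in the LPS arrays, and Umod, uromodulin, read 6.77, 4.28, 4.30 and 5.10 in the control arrays and 4.88, 5.01, 8.36 and 4.36 in the LPS arrays. Atp6v1g3, of intercalated cells, read 3.89, 3.49, 3.51 and 3.10 in the control arrays and 3.95, 3.72, 6.33 and 4.05 in the LPS arrays. LPS replicate 3 was the highest of the 8 arrays in all 3. The summed log2 values of the 20 markers were 98.1 in LPS replicate 3, between 79.8 and 81.9 in the other LPS arrays and between 80.2 and 83.5 in control. The part of this array's makeup in the mitochondrial values was not tested.

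**Figure D3:**
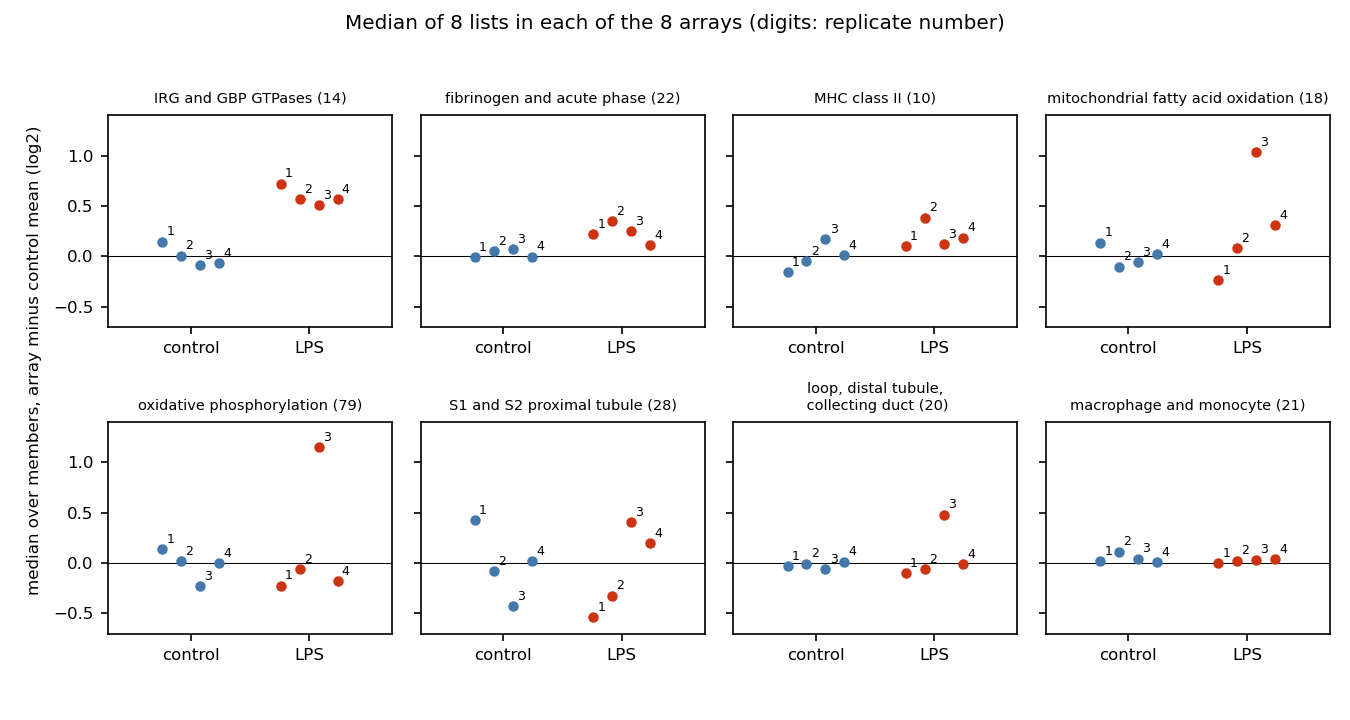
Median over the members of 8 gene lists in each array, minus each gene's control mean (log2), with digits for replicate numbers and list sizes in brackets. The GTPase list separates the groups, whereas the oxidative phosphorylation list is at 1.15 in LPS replicate 3 and at or below -0.06 in the other LPS arrays.

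Transporters and other markers of the proximal tubule went in both directions. Slc34a1, which takes up phosphate with sodium at the brush border, read 11.27, 11.54, 10.99 and 11.12 in the control arrays and 9.65, 10.12, 10.90 and 9.48 in the LPS arrays, 2.28-fold lower in LPS (difference -1.19, SE 0.37, limma adjusted p = 0.551). Its groups did not overlap, with LPS replicate 3 nearest the controls. For Slc5a2, which reabsorbs most filtered glucose, the difference was -0.28 (SE 0.16, limma adjusted p = 0.789), again without overlap. Its group means of 4.50 in control and 4.22 in LPS both lay below the reference. Slc22a6, the organic anion transporter, read 8.25, 7.09, 6.33 and 7.69 in the control arrays and 4.22, 6.25, 6.70 and 7.02 in the LPS arrays, and its difference of -1.29 was -0.68 without LPS replicate 1. Miox, inositol oxygenase, and Car4, the membrane carbonic anhydrase, differed by -0.99 and -0.82 with overlap. Cndp2, a cytosolic dipeptidase, read 7.40, 6.40, 6.66 and 6.57 in the control arrays and 5.91, 6.21, 6.08 and 6.13 in the LPS arrays (difference -0.67, SE 0.25, limma adjusted p = 0.693), and all LPS arrays lay below the controls. The endocytic receptors Lrp2, megalin, and Cubn, cubilin, differed by 0.13 and 0.62, or by -0.533 and -0.113 without LPS replicate 3. Of the 28 S1 and S2 markers 13 were higher and 15 lower, and the median was -0.07 (from -0.264 without LPS replicate 4 to 0.11 without control replicate 1). At an unadjusted p under 0.05 there were 1 higher and 3 lower (14.3% of the list, beside 6.43% of all genes). The S1 and S2 list ranged widely between LPS arrays, from -0.53 in replicate 1 to 0.40 in replicate 3, and between control arrays, from -0.43 to 0.42. Medians of the 4 transport lists ran from 0.01 for organic anions and cations to 0.22 for amino acids. Without LPS replicate 3 they were -0.155 for organic anions and cations, -0.074 for sodium, bicarbonate and water, -0.036 for glucose and phosphate and 0.109 for amino acids, so that 3 of the 4 turned sign.

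Some tubule genes were higher. Guca2b, the natriuretic peptide uroguanylin, read 7.42, 8.28, 6.75 and 7.82 in the control arrays and 8.53, 10.19, 9.34 and 9.29 in the LPS arrays (difference 1.77, SE 0.42, limma adjusted p = 0.333), all LPS arrays above the controls. Pck1, the gluconeogenic enzyme, read 7.76, 7.10, 6.77 and 7.12 in the control arrays and 7.72, 8.72, 9.47 and 7.83 in the LPS arrays, with an overlap of LPS replicate 1 and control replicate 1 (difference 1.25, SE 0.38, limma adjusted p = 0.551). Got1, which makes aspartate and oxaloacetate interconvert, differed by 0.92 (SE 0.19) and Lap3, a leucine aminopeptidase, by 1.09 (SE 0.24), each without overlap. Both group means of Lap3 lay below the reference. Selenbp1, a selenium-binding protein, read 6.55, 6.43, 6.64 and 6.80 in the control arrays and 8.02, 7.88, 7.39 and 7.43 in the LPS arrays (difference 1.07, SE 0.21, limma adjusted p = 0.125). Pax8, a transcription factor of the nephron epithelium, differed by 1.05 (SE 0.20), while Hnf4a, the proximal tubule regulator, differed by -0.09 and Esrra, of mitochondrial gene control, by -0.40.

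Genes lower by at least 1 log2 unit were fewer: without overlap, and with a mean over 13 arrays above the reference, they numbered 4, against 18 higher. Genes higher in LPS pass the filter on that mean more easily, and Lpl, with a mean of 4.55 over 13 arrays, is not among the 4. Beside BC024386, Lpl and Slc34a1, genes lower without overlap included Rab3c, of vesicle traffic (-1.06), and Tle5, a corepressor (-0.90). Aldh1a1, which makes retinoic acid, differed by -0.56, Col4a3, a basement membrane collagen, by -0.60, and Rplp0, a ribosomal stalk protein, by -0.54. Gcn1, an activator of the stress kinase Gcn2, differed by -0.56, but another probe set of it gave a difference of the opposite sign.

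Stress and proteostasis lists differed among themselves. In the endoplasmic reticulum chaperone list 16 of 23 genes were higher, with a median of 0.25 (from 0.201 without LPS replicate 4 to 0.309 without LPS replicate 1). At an unadjusted p under 0.05 there were 5 higher and 0 lower (21.7% of the list, beside 6.43% of all genes). Hspa5, the chaperone BiP, differed by 0.71 and Dnajc3, an inhibitor of the kinase PERK, by 0.94. The endoplasmic reticulum stress element, CCAAT and CCACG with any 9 bases between them on either strand, was found in 9 of 19 promoters of this list (47.4%), against 0.137% of all genes. Atf4 and Ddit3, effectors of the integrated stress response, differed by 1.17 and 0.61 (0.313 without LPS replicate 4), both with overlap, and their list had 13 higher, 8 lower and a median of 0.01 (from -0.0179 without control replicate 1 to 0.0469 without control replicate 2). Of 16 cytosolic and mitochondrial heat shock genes 8 were higher and 8 lower, with a median of 0.04 (from -0.0175 without control replicate 3 to 0.125 without control replicate 2). Metallothionein Mt1, which binds zinc, read 4.57, 4.36, 4.73 and 4.91 in the control arrays and 5.31, 6.17, 6.58 and 5.33 in the LPS arrays (difference 1.20, SE 0.27, limma adjusted p = 0.235), and the groups did not overlap. Txn1, thioredoxin, Gsr, glutathione reductase, and Txnrd1, thioredoxin reductase, differed by 1.26, 0.73 and 0.59. Of 33 proteasome genes 27 were higher, 5 of them and 0 lower at an unadjusted p under 0.05 (15.2% of the list, beside 6.43% of all genes). Psmd11, a regulatory subunit, had the lowest p (difference 0.54), and the median was 0.16 (from 0.0432 without LPS replicate 3 to 0.258 without LPS replicate 4). Translation factors were higher for 34 of 46, 8 of them and 0 lower at that level (17.4%), with Eif6 at 1.18 and a median of 0.16 (from 0.0724 without LPS replicate 3 to 0.283 without control replicate 3). Of 30 lysosome and autophagy genes 23 were higher, 5 of them and 0 lower at that level (16.7%), with the cathepsin Ctsl at 1.24 and a median of 0.21 (from 0.0895 without LPS replicate 3 to 0.297 without LPS replicate 4).

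**Figure D4:**
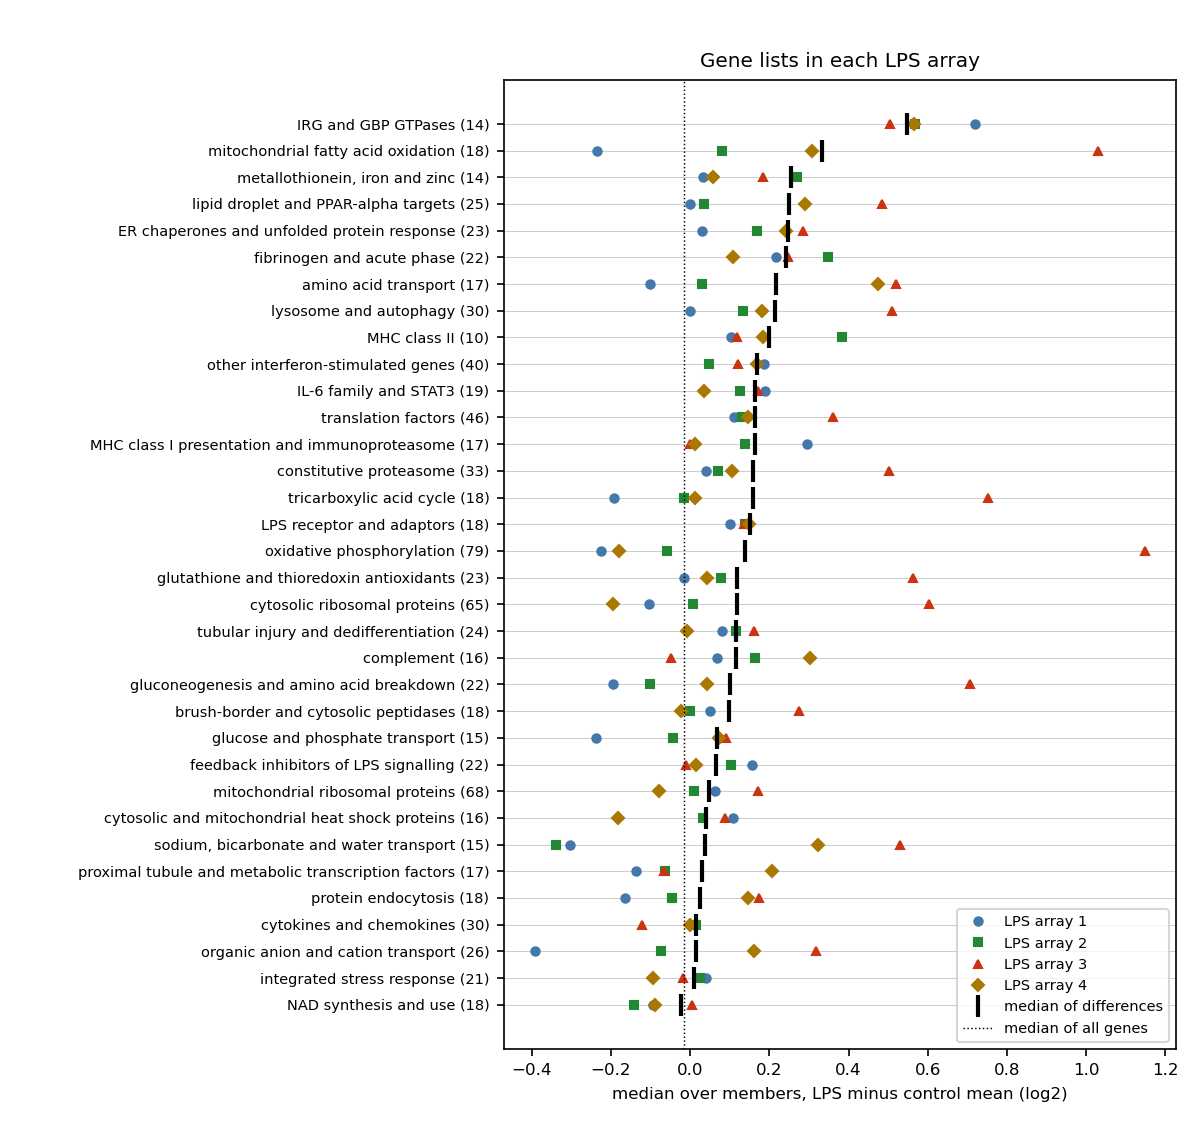
Median over members of each of the 34 pathway lists (sizes in brackets) in LPS replicates 1 to 4, minus each gene's control mean (log2); the tick is the median of the differences and the dotted line that of all genes. LPS replicate 3 (red triangles) lies far to the right for mitochondrial, ribosomal and metabolic lists, and the arrays lie together for the GTPase and interferon lists.

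Markers of tubular injury were higher for 17 of 24 genes, with a median of 0.12 (from 0.0575 without control replicate 1 to 0.167 without control replicate 3). At an unadjusted p under 0.05 there were 4 higher and 0 lower (16.7% of the list, beside 6.43% of all genes). The 4 were Plac8, Lcn2, Krt20 and Havcr1. Havcr1, which encodes kidney injury molecule 1, read 3.34, 2.84, 3.34 and 3.27 in the control arrays and 3.41, 4.14, 3.87 and 4.41 in the LPS arrays (difference 0.76, SE 0.20, limma adjusted p = 0.429), below the reference in all arrays. Krt20, a cytokeratin, differed by 1.05 and Clu, clusterin, by 0.46 (0.164 without LPS replicate 3). Neutrophil markers were higher for 2 and lower for 11 of 13, with summed log2 values of 43.5 to 48.2 in the control and 41.6 to 48.8 in the LPS arrays, and lymphocyte markers for 2 and 9 of 11. Over all genes 47.1% were higher and 52.9% lower. Endothelial markers were higher for 12 of 15 and lower for 3. At an unadjusted p under 0.05 there were 2 higher, Pecam1 (0.75) and Cdh5 (0.53), and 1 lower, Sele (-0.41), all with overlap. Of the 15, 1 had a group mean above the reference. Podocyte and lymphocyte markers had 0 above it.

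Which genes reached an adjusted p under 0.05 depended on how the LPS arrays were weighted. Without LPS replicate 1, the lowest LPS array for Lcn2, Orm2, B2m, H2-Ab1 and Plin2, limma called 24 genes (0.108%), 22 higher (0.0992%) and 2 lower (0.00902%), and with array weights, which gave the LPS replicates 0.736, 2.18, 0.68 and 0.703, it called 30 (0.135%), 25 higher (0.113%) and 5 lower (0.0225%). Both settings called 13 genes: Angptl4, BC024386, Gbp10, H2-Ab1, H2-T23, Lcn2, Mapkapk2, Olfr218, Orm2, Plac8, Plin2, Snord19 and Xdh. With array weights the calls also took in Fgg (3.56), Cd14 (1.82), Igtp (1.87), Klf6 (1.60), Pdk4 (2.45) and Txnip (1.38). The same setting called the olfactory receptor genes Olfr916 (3.48), Olfr1299 (1.51) and Olfr1356 (-0.81), of the family that set the reference. It further called Trav12-2 (0.90), Mir3961 (-1.26) and Gm19389 (-0.67). Without LPS replicate 1 they took in Ezr, the brush-border linker ezrin (1.46), Cstb, a cathepsin inhibitor (1.18), and Rps12, a ribosomal protein (1.39). Over all settings tried 42 genes were called at least once.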

How the data were processed

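RNA of S1 tubule samples was extracted with the PicoPure kit and 2 ng per sample was labelled with the Affymetrix WT Pico kit, per the labels' protocols. The authors deposited 1 log2 value per probe set and array. RMA and Partek 6.6 are named in the submitters' processing notes. Which background step and build were used is not given in the sources used here. RMA summarises probes on a log2 scale, and background signal left in it would draw differences of dim genes toward 0. Detection calls were not made, and precision is limited by the number of arrays.

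The table held 41345 probe sets; 23521 had 1 gene symbol, and 1814 with several and 16010 with none were left out of the gene tests. For 1082 genes with several probe sets the one with the highest mean over the 13 arrays was used, which left 22180 genes. All 13 arrays entered 1 limma fit (limma 3.58.1, R 4.3.3) with 1 mean per group and no covariates, and LPS minus control was taken from it, with Benjamini-Hochberg adjustment over all genes. In data simulated for this comparison with 22180 genes and 50 changed genes per size, the fit recovered 8% of changes of 0.5 log2 units, 56% of 1, 88% of 1.5 and 96% of 2. The changed genes were drawn at random, and the noise was independent and of equal spread in every group. Here replicates varied more after LPS and LPS replicate 3 stood apart, so these shares may not hold for the measured arrays.

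Replicate numbers did not pair the arrays: deviations of same-numbered arrays correlated at -0.275, 0.02, -0.0587 and 0.148 for numbers 1 to 4. Members and gene lists were chosen with earlier results of these data known, so list counts and medians are descriptions. Genes were named by 4 rules: an adjusted p under 0.1; the 15 largest differences in each direction among non-overlapping genes with a group mean above the reference at an unadjusted p under 0.05, leaving out predicted genes, small RNAs and olfactory, vomeronasal and taste receptors; up to 5 members of each list with the lowest p; and calls of an alternative setting. A few genes of known interest, such as Tlr4, Slc5a2 and Lrp2, were named whatever their values, and genes outside these rules were chosen after their values were seen. Promoters were RefSeq windows from 250 bases before to 50 after the start on GRCm38.p6, with 32851 windows for 27025 genes, matched by symbol. Alternatives varied the arrays, weights, blocks, normalization, filter, probe sets and moderation.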

Additional observations from a re-analysis of the deposited data

Results flagged for a closer look

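Values of 1 array lay far from the other 3 of its group for some of the genes named, by Dixon's test, which flags about 1 in 20 groups by chance; 266 groups of single genes were tested. In the LPS group these were Gbp10 (9.69, replicate 2), B2m (8.39, replicate 1), Cxcl9 (5.79, replicate 2), Gbp7 (4.75), Il6 (2.36), Ndufs5 (3.12), Rab3c (5.06) and Zfp36 (4.53). LPS replicate 3 was the lone array for the loop and distal tubule genes Slc12a1 (6.79), Umod (8.36) and Atp6v1g3 (6.33). In the control group they were Gbp10 (6.14, replicate 4), Lpl (4.76, replicate 3), Gbp9 (4.84), Havcr1 (2.84), Irf1 (4.11), Oas1g (3.1), Pecam1 (3.11) and Tap2 (3.76).

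The median of a whole list against the control mean stood apart in LPS replicate 3 for oxidative phosphorylation (1.15), glutathione and thioredoxin antioxidants (0.563), the constitutive proteasome (0.502), translation factors (0.362), the loop, distal tubule and collecting duct (0.482) and, on the low side, cytokines and chemokines (-0.121).

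Probe sets with no gene symbol, which entered no comparison above, held large differences, some beyond that of any gene tested. Among those higher by at least 2 log2 units without overlap and at an unadjusted p under 0.001, probe set 17538787 read 0.82, 0.57, 1.81 and 2.33 in the control arrays and 4.78, 9.24, 8.001 and 8.08 in the LPS arrays, a difference of 6.14 (SE 0.81, limma adjusted p = 0.178 over all probe sets). The others were 17538770 (5.25), 17449635 (3.95), 17475225 (3.93), 17538805 (3.37), 17395302 (3.26), 17439830 (2.85) and 17346528 (2.38). Their identity is not known here, and none passed an adjusted p of 0.05.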

How the results depend on the processing

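With an adjusted p under 0.05, limma called 3 genes with replicate number as a block (H2-T23, Snord19 and Xdh), 30 with array weights, 1 with a block for arrays of wide or narrow spread, 5 after quantile normalization and 3 among genes with a mean over 13 arrays above the reference. Leaving out 1 array gave 0 to 24 genes, with 24 without LPS replicate 1, 5 without LPS replicate 3 and 1 without control replicate 4. A fit of only the 8 arrays, median centring, a prior trend, no moderation and the use of every probe set gave 0. The replicate block left 1392 genes at an unadjusted p under 0.05. In a fit of only the genes with a mean over 13 arrays above the reference, 179 had an unadjusted p under 0.05, and 39 were higher and 13 lower by at least 1 log2 unit. Genes higher in LPS pass that filter more easily. Without 1 array, 1096 to 1998 genes had an unadjusted p under 0.05, 110 to 246 were higher by at least 1 log2 unit (246 without LPS replicate 1) and 64 to 103 lower (100 without control replicate 2, 103 without LPS replicate 4).

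Direction was followed for 133 of the genes named. Many of them were named for groups without overlap, and leaving out 1 array cannot turn the direction of such a gene. Of the 133, 118 kept direction in every setting run, a count partly fixed by that choice. Leaving out 1 array turned the direction of 13 of the others, with ranges of -0.207 to 1.68 for Cox7b, -0.113 to 0.966 for Cubn, -0.432 to 0.0111 for Gbp6, -0.286 to 0.145 for Hnf4a, -0.171 to 0.112 for Hp, -0.235 to 0.0252 for Il6 and -0.0867 to 0.256 for Isg15. The ranges were -0.533 to 0.66 for Lrp2, -0.0426 to 0.0896 for Ptprc, -0.0304 to 0.997 for Slc12a1, -0.0789 to 0.263 for Tlr4, -0.177 to 0.151 for Tnf and -0.358 to 1.1 for Umod. Array weights turned Isg15 (-0.0699), Lrp2 (-0.15) and Tnf (0.00654), quantile normalization Il6 (0.0451) and Lrp2 (-0.00943), and the wide arrays alone Tnf (0.0294). Another probe set gave 0.286 for Gcn1 and -0.0334 for Irf8. The cause of these turns was not tested. With 1 array left out, 45 of the 133 differences moved by over 1.5 times or turned, 24 of them without LPS replicate 3. Of 749 list medians under all settings 43 moved beyond the spread between replicates. That spread is wide where LPS replicate 3 stands apart, so this count cannot show that the medians are stable. By the measure of over 1.5 times or a turned sign, 39 of 43 list medians changed with 1 array left out. Without LPS replicate 3 this held for 31.

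With 4 arrays a group, the simulated fit recovered 56% of changes of 1 log2 unit, and most genes lie below the reference, where the size of a difference is uncertain.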
